A study of Sus scrofa with 30 samples.

Results

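The 10 genes described here code for integrin subunits, 5 alpha chains (ITGA2, ITGA3, ITGA5, ITGA6 and ITGAV) and 5 beta chains (ITGB1, ITGB3, ITGB4, ITGB5 and ITGB6), out of 13103 genes counted in all embryos. They were listed by symbol as partners of one another, with earlier results of these data known. Each symbol matched 1 NCBI gene identifier in the counts. RNA of 30 single whole pig embryos was sequenced, and each of Day 8, Day 10 and Day 12 after insemination gave 5 females and 5 males. Embryos are named by day, sex and number (d08_m_103 is a male of Day 8). German Landrace × Pietrain crossbred gilts had been synchronized with hormones and inseminated with semen of 1 Pietrain boar, so the embryos of all groups share a sire, and the sex of an embryo was read from its DNA. The study took embryos of both sexes from the same gilts, but which gilt carried an embryo was not stated, and the p-values here treat littermates as if they were independent. Each gilt was slaughtered on 1 day, and a day had fewer gilts than embryos. The p-values between days thus rest on fewer independent gilts than embryos. A library holds embryonic disc and trophectoderm together, and in such bulk samples fewer cells of a type and less RNA per cell cannot be told apart.

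Integrins are receptors of the cell surface in which 1 alpha and 1 beta chain pair before they leave the endoplasmic reticulum, so a receptor needs transcripts of both partners in the same cell. The alpha chain largely sets the ligand (collagens, laminins or fibronectin), and the tail of the beta chain binds talin and kindlin, which couple the receptor to actin. ITGB1 is the partner of many alpha chains, while ITGAV pairs with several beta chains to give receptors for proteins with an RGD motif such as fibronectin, vitronectin and osteopontin. Pig embryos change from spheres to filaments in the days studied, before the trophectoderm attaches to the uterine epithelium, and integrins are known to take part in that attachment.

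Counts per embryo ran from 6068212 (d12_f_245) to 34002508. Levels are given as CPM, read counts scaled for library size with TMM, and the lowest level that can be told from 0 counts, 3 counts, came to between 0.0823 and 0.434 CPM. Over all genes, 5 embryos lay further from the other embryos of their day than any other: d08_m_103, d10_m_453 and d10_f_454, and d12_f_245 and d12_f_271. Of the trophectoderm markers (CDX2, GATA2, GATA3, TFAP2C, KRT8, KRT18 and ELF5) all 7 were counted, of which 2 were called higher up to Day 10 and 1 higher and 3 lower from Day 10 to Day 12, with summed levels from 20567 to 25209 CPM on Day 8, 32651 to 50037 CPM on Day 10 and 8556 to 26483 CPM on Day 12. The 4 epiblast markers (POU5F1, NANOG, SOX2 and LIN28A) summed to between 128.7 and 201 CPM on Day 8, 106 and 169 CPM on Day 10 and 11.7 and 153 CPM on Day 12, and the 5 hypoblast markers (GATA4, GATA6, SOX17, PDGFRA and HNF4A) to 294 to 444 CPM, 158 to 215 CPM and 162 to 1440.0 CPM. Both measured mesoderm markers, T and EOMES, summed to 1.85 to 4.07 CPM on Day 8, 0.776 to 6.59 CPM on Day 10 and 0 to 0.238 CPM on Day 12. Single markers of leukocytes (LCP1, up to 6.96 CPM) and platelets (ITGA2B, up to 1.29 CPM) and 2 of the endometrial epithelium (ACP5 and ESR1, up to 16.4 CPM in sum) were in the counts, out of 5, 4 and 5 listed, and PTPRC, PF4 and PGR were not. From Day 8 to Day 12 ACP5 was called higher, with medians of 0.485 and 4.64 CPM (log2 fold change 3.23). ESR1 was not called, with medians of 0.0641 and 0.775 CPM (2.02). Up to Day 10, 1 epiblast marker (POU5F1) and 1 hypoblast marker (GATA6) were called lower, and 1 mesoderm marker (T) higher. From Day 10 to Day 12, 0 of 4 epiblast markers were called higher and 4 lower. In that interval 3 of 5 hypoblast markers were called higher and 0 lower, and both mesoderm markers lower. The median log2 fold change of the hypoblast markers was -0.52 and then 1.72. Of all genes, 9.88% were called higher and 4.20% lower up to Day 10, and 14.9% and 8.39% after it. These sums moved with the days, and their part in the integrin values was not tested.

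From Day 8 to Day 12 the listed alpha chains ITGA2, ITGA3, ITGA6 and ITGAV and the beta chains ITGB3, ITGB4, ITGB5 and ITGB6 rose, while ITGA5, a chain of the fibronectin receptor, fell up to Day 10. Genes were called as differentially expressed (DEG) at an adjusted p under 0.001 and a log2 fold change beyond 1, with edgeR's quasi-likelihood test and Benjamini-Hochberg adjustment over all genes. From Day 8 to Day 10, ITGA3 and ITGB6 were called higher and ITGA5 lower, which is 2 and 1 of 10 members, against 9.88% and 4.20% of all genes. From Day 10 to Day 12, ITGA2, ITGA3, ITGA6, ITGB3 and ITGB5 were called higher and none lower, which is 5 and 0 of 10 members against 14.9% and 8.39% of all genes. Over the whole span from Day 8 to Day 12, 8 of 10 members were called higher and 0 lower, against 22.0% and 10.4% of all genes, and the 2 without a call were ITGA5 and ITGB1. The median log2 fold change of the members was 0.46, 1.17 and 2.07 in these comparisons, next to 0.03, 0.04 and 0.09 over all genes. The members were chosen with earlier results of these data known, so shares and medians above those of all genes can follow from that choice. ITGB6 was absent from the separate counts of Day 8 and of Day 10. Its calls as higher can thus also follow from the CPM filter. Of the 9 further integrin subunits in the counts, 2 were called higher and 2 lower from Day 8 to Day 12, with a median of 0.27. The 2 days of a comparison did not overlap for 2, 1 and 3 members, while 22.0%, 16.6% and 31.7% of all genes had no overlap. The first and second interval share the Day 10 embryos, so their values are not independent of each other.

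**Figure D1:**
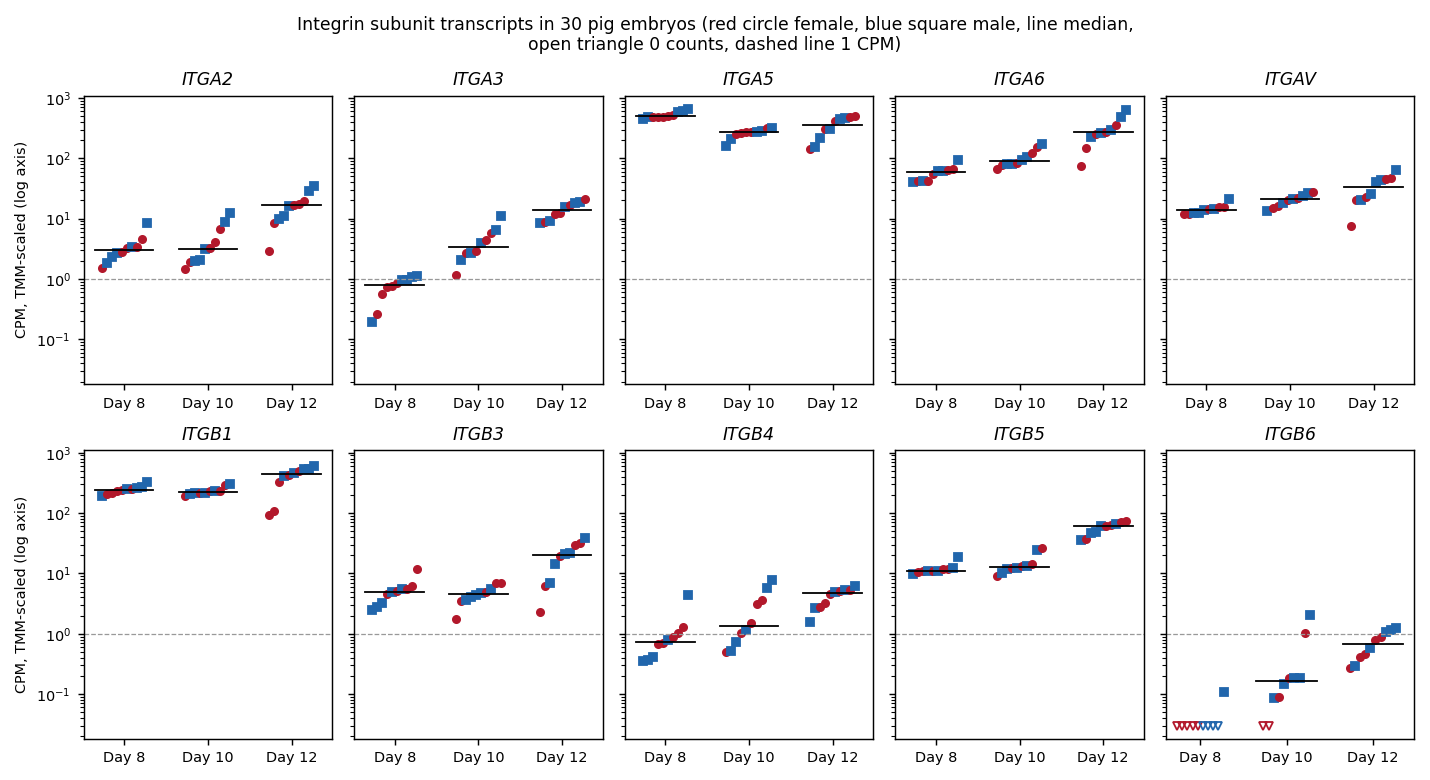
CPM (log axis) of each of the 10 integrin subunits in the 10 embryos of Days 8, 10 and 12, with female embryos as red circles, male embryos as blue squares, the median as a line, embryos with 0 counts as open triangles drawn at the foot of the axis and 1 CPM as a dashed line. The ITGA3 median is higher on each later day, ITGA5 is lowest on Day 10, and d12_f_245 and d12_f_271 lie under the other embryos for ITGB1.

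ITGAV (NCBI gene 397285, chromosome 15 of Sscrofa11.1, 91604666 to 91711843), the common alpha chain of the RGD receptors, rose over the whole span but passed in neither interval. Its level was 11.7, 14.1 and 21.5 CPM on Day 8 (lowest, median and highest of 10 embryos), 13.6, 20.9 and 27.2 CPM on Day 10 and 7.44, 33.4 and 64.7 CPM on Day 12. All days overlapped, and the lowest embryo of all 30 was d12_f_271. The log2 fold change was 0.50 (SE 0.23, adjusted p = 0.0646) from Day 8 to Day 10 and 0.74 (SE 0.23, adjusted p = 0.00649) from Day 10 to Day 12, neither of them a call. Over the whole span it was 1.24 (SE 0.23, adjusted p = 2.06e-05), which is a call. Without the 5 embryos that lay apart, the value from Day 10 to Day 12 was 1.04 (adjusted p = 5.60e-05) and passed. A gene model listed as a pseudogene lies within the span of ITGAV and has no row of its own in the counts.

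ITGB1 (NCBI gene 397019, chromosome 10, 56078393 to 56130608), the beta chain shared by most alpha partners, had similar medians on Days 8 and 10 and a higher one on Day 12, with no call. Day 8 embryos had 189, 243 and 331 CPM (lowest, median, highest), Day 10 embryos 191, 221 and 302 CPM and Day 12 embryos 93.9, 445 and 609 CPM. On Day 12, d12_f_245 and d12_f_271 had 93.9 and 110 CPM, below every embryo of the earlier days, while the other 8 had at least 326 CPM, above every Day 10 embryo. The log2 fold change was -0.07 (SE 0.22, adjusted p = 0.789) up to Day 10 and 0.80 (SE 0.22, adjusted p = 0.00240) from Day 10 to Day 12. Without those 2 embryos it was 1.04 (SE 0.11, adjusted p = 1.91e-09) and a call, and over the whole span 0.97 (adjusted p = 5.16e-09), which misses the fold limit. Embryo d12_f_245 had the smallest library, with 649 counts for ITGB1.

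ITGA5 (NCBI gene 100155091, chromosome 5, 19587361 to 19610580), the alpha chain of the classical fibronectin receptor, was the member that fell. Its level ran from 444 through a median of 496 to 664 CPM on Day 8, from 158 through 272 to 316.7 CPM on Day 10 and from 143 through 360 to 506 CPM on Day 12. All Day 10 embryos lay below all Day 8 embryos, and Day 12 spread over both. It changed by a log2 value of -1.01 (SE 0.18, adjusted p = 2.46e-05) from Day 8 to Day 10, then 0.40 (SE 0.18, adjusted p = 0.0565), and -0.61 (SE 0.18, adjusted p = 0.00332) over the whole span. The first value stands at the fold limit: without 1 of d08_m_121, d08_m_133, d08_m_136, d10_m_318 or d10_m_453 it was between -0.99 and -0.95 and no call, and without d10_m_453 and d10_f_454 together -0.93 (adjusted p = 0.000191).

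ITGA6 (NCBI gene 100158200, chromosome 15, 78504108 to 78591779), a laminin receptor chain that pairs with ITGB1 or ITGB4, was called higher in the second interval. The lowest, median and highest levels were 40.0, 58.4 and 95.2 CPM on Day 8, 67.3, 89.2 and 173 CPM on Day 10 and 74.8, 270.1 and 627 CPM on Day 12. On Day 8 only d08_m_136 reached into the range of Day 10, and on Day 12 only d12_f_245 and d12_f_271 were within it. Its log2 fold change was 0.87 (SE 0.25, adjusted p = 0.00397) and then 1.53 (SE 0.25, adjusted p = 4.89e-06), with 2.40 (SE 0.26) from Day 8 to Day 12.

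ITGA3 (NCBI gene 100517053, chromosome 12, 26234769 to 26269327), another laminin receptor chain, was called in both intervals, and it was the only member for which this held. It had 0.197, 0.808 and 1.12 CPM on Day 8, 1.18, 3.42 and 11.02 CPM on Day 10 and 8.51, 13.8 and 21.5 CPM on Day 12 (lowest, median, highest). Days 8 and 10 did not overlap, and of the Day 10 embryos only d10_m_453 entered the range of Day 12. The 2 intervals gave log2 fold changes of 2.51 (SE 0.33, adjusted p = 1.95e-07) and then 1.69 (SE 0.30, adjusted p = 1.67e-05), or 4.20 (SE 0.35) in all. These levels rest on 180 counts over the 10 Day 8 embryos, 1010 on Day 10 and 3180 on Day 12. Without d10_m_453 and d10_f_454 the first value was 2.13 (adjusted p = 1.09e-06).

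ITGA2 (NCBI gene 397483, chromosome 16, 32336240 to 32440311), which forms a collagen receptor with ITGB1, rose after Day 10. Day 8 embryos ranged from 1.505 to 8.34 CPM with a median of 3.05 CPM, Day 10 embryos from 1.47 to 12.6 CPM with a median of 3.18 CPM and Day 12 embryos from 2.94 to 35.3 CPM with a median of 16.7 CPM. d08_m_103 and d10_m_453 were the highest of their days, and d12_f_271 the lowest of its day, so that all days overlapped. From Day 8 to Day 10 the log2 fold change was 0.42 (SE 0.39, adjusted p = 0.369), and it was -0.05 without d10_m_453 and d10_f_454. From Day 10 to Day 12 it was 1.85 (SE 0.39, adjusted p = 0.000157). The gene overlaps MOCS2, which is also in the counts, and the strand setting of the counting is not given in the sources used here, so reads of the shared stretch could belong to either gene.

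ITGB5 (NCBI gene 100134977, chromosome 13, 135468111 to 135587483), a partner of ITGAV in vitronectin receptors, had the lowest adjusted p of the members after Day 10. It had 9.83, 11.12 and 18.6 CPM on Day 8 and 9.04, 12.8 and 26.1 CPM on Day 10 (lowest, median, highest), and 35.1, 60.3 and 75.1 CPM on Day 12. All Day 12 embryos lay above all earlier ones, with d10_m_453 and d10_f_454, at 24.6 and 26.1 CPM, nearest to them. Fold changes on the log2 scale were 0.31 (SE 0.17, adjusted p = 0.132) up to Day 10 and 1.94 (SE 0.18, adjusted p = 6.70e-11) afterwards. Up to Day 10 it was 0.02 without d10_m_453 and d10_f_454.

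ITGB3 (NCBI gene 397063, chromosome 12, 16694466 to 16752228), the beta chain of another vitronectin receptor with ITGAV, rose over the same interval but with a wider spread. The lowest, median and highest levels were 2.49, 4.98 and 11.7 CPM on Day 8, 1.73, 4.52 and 7.07 CPM on Day 10 and 2.28, 20.3 and 38.4 CPM on Day 12. d12_f_271 was within the range of Day 10, as were d12_f_245 (6.22 CPM) and a further embryo with 6.85 CPM. From Day 10 to Day 12 the log2 fold change was 2.05 (SE 0.35, adjusted p = 9.22e-06). Up to Day 10 it was -0.17 (SE 0.35, adjusted p = 0.702), with a sign that turned to 0.06 without d08_f_124, the highest of its day.

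ITGB6 (NCBI gene 100037276, chromosome 15, 67041516 to 67175409), an epithelial partner of ITGAV known for the activation of latent TGF-beta, went from almost no counts to a low level. Of the Day 8 embryos 9 had 0 counts and d08_m_103 had 4 counts (0.110 CPM). On Day 10 the median was 0.164 CPM, 2 embryos had 0 counts, and d10_f_454 (1.03 CPM) and d10_m_453 (2.02 CPM) stood above the rest, which had at most 0.185 CPM. All Day 12 embryos had more than 3 counts, from 0.269 to 1.24 CPM with a median of 0.681 CPM. The separate counts of Day 8 and of Day 10, which the authors filtered by CPM, lack ITGB6, while those of Day 12 hold it. Its place in the counts of all embryos can thus rest on its later level. A rise from Day 8 can follow from that filter, so the calls below are a description. The fitted log2 fold change was 4.23 (SE 0.86, adjusted p = 0.000119) from Day 8 to Day 10 and 0.81 (SE 0.58, adjusted p = 0.239) from Day 10 to Day 12. Because Day 8 rests on 4 counts, the pooled ratio is wide: Day 10 was 25.2 times Day 8 (95% exact interval 9.54 to 94.4) and Day 12 40.4 times (15.5 to 150.2), with counting error alone in the intervals. The first fitted value was 6.17 without d08_m_103, 3.30 without d10_m_453, and 2.44 (adjusted p = 0.00556) and no call without d10_m_453 and d10_f_454. In that last fit the rise after Day 10 was 2.59 (adjusted p = 7.23e-05) and a call, and without d10_m_453 alone it was 1.73. The span of ITGB6 overlaps long noncoding RNA models that have no row of their own in the counts.

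ITGB4 (NCBI gene 100521988, chromosome 12, 5651292 to 5685601) pairs with ITGA6 alone and anchors hemidesmosomes. It had 0.355, 0.738 and 4.36 CPM on Day 8, 0.491, 1.34 and 7.80 CPM on Day 10 and 1.57, 4.69 and 6.27 CPM on Day 12 (lowest, median, highest). The days overlapped, and d08_m_103 (4.36 CPM) was above the other 9 embryos of its day, which had at most 1.30 CPM. Its log2 fold change was 1.21 (SE 0.48, adjusted p = 0.0315), 0.69 (SE 0.47, adjusted p = 0.207) and, over the whole span, 1.90 (SE 0.48, adjusted p = 0.000835). The last is a call that was lost in 15 of 20 fits with 1 embryo left out, all with values from 1.79 to 1.93. It was also lost without d12_f_245 and d12_f_271 (1.99, adjusted p = 0.00103). Without d08_m_103 the values were 1.83 up to Day 10, then a call, and 2.51 over the whole span.

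**Figure D2:**
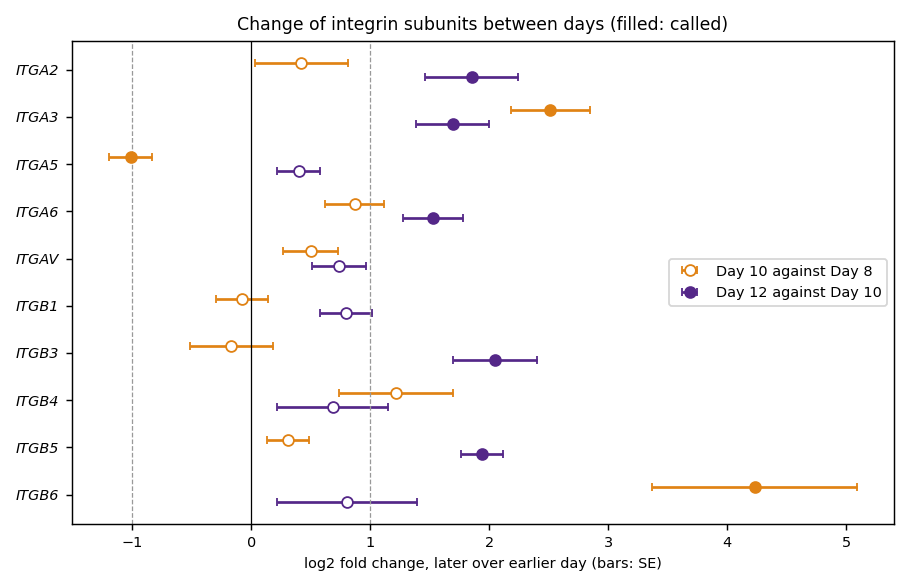
The log2 fold change of each integrin subunit (x axis, bars are SE) from Day 8 to Day 10 in orange and from Day 10 to Day 12 in violet, with filled points for calls and dashed lines at the fold limit of 1. ITGA5 is the one filled point on the left, and all 10 values of the second interval are above 0.

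The embryos that lay apart in all genes also held end values of their day for several integrins. Their choice rests on distance over all genes, so such values can follow from it. The share of all genes with such ranks was not computed. d10_f_454 and d10_m_453 had the highest 2 values of their day for 5 of 10 members, ITGA6, ITGAV, ITGB1, ITGB5 and ITGB6. They were also nearest to Day 12 on the first principal component of all genes, with 2.003 and 7.35 against -42.0 to -19.1 for the other Day 10 embryos. d12_f_245 and d12_f_271 had the lowest 2 values of their day for 4 members, ITGA2, ITGA6, ITGB1 and ITGB3. For ITGA5 they were the highest and the lowest of their day, at 506 and 143 CPM. d08_m_103 was highest for ITGA2, ITGA3, ITGB4 and ITGB6 and lowest for ITGA5. Without d10_m_453 and d10_f_454, 1 of 10 members was called up to Day 10 in place of 3, in a fit that called 11.52% of all genes in either direction. Without all 5 embryos, the calls from Day 10 to Day 12 went from 5 to 8 of 10, with ITGAV, ITGB1 and ITGB6 added, in a fit that called 24.0% of all genes in either direction.

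For a receptor both chains are needed, so the 9 textbook pairs were counted in each embryo, with 1 CPM for each partner as the limit of presence. ITGB1 met ITGA2, ITGA5, ITGA6 and ITGAV in 10 of 10 embryos on each day, and ITGAV met ITGB3 and ITGB5 in 10 of 10. Thus 6 of 9 pairs were present in every Day 8 embryo. The pair of ITGA3 with ITGB1 was present in 2 of 10 embryos on Day 8 and in all 10 on both later days, with ITGA3 as the chain under the limit. The hemidesmosome pair of ITGA6 with ITGB4 was present in 3, 7 and 10 embryos on Days 8, 10 and 12, with ITGB4 as the limiting chain. ITGAV with ITGB6 was present in 0, 2 and 3 embryos, namely d10_m_453 and d10_f_454 and d12_m_249, d12_m_275 and d12_m_307. An absent pair means that a chain was under 1 CPM in the whole embryo, and a few cells could still hold both. A present pair means only that both transcripts reached 1 CPM in the whole embryo. The transcripts could lie in different cells, and protein was not measured.

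**Figure D3:**
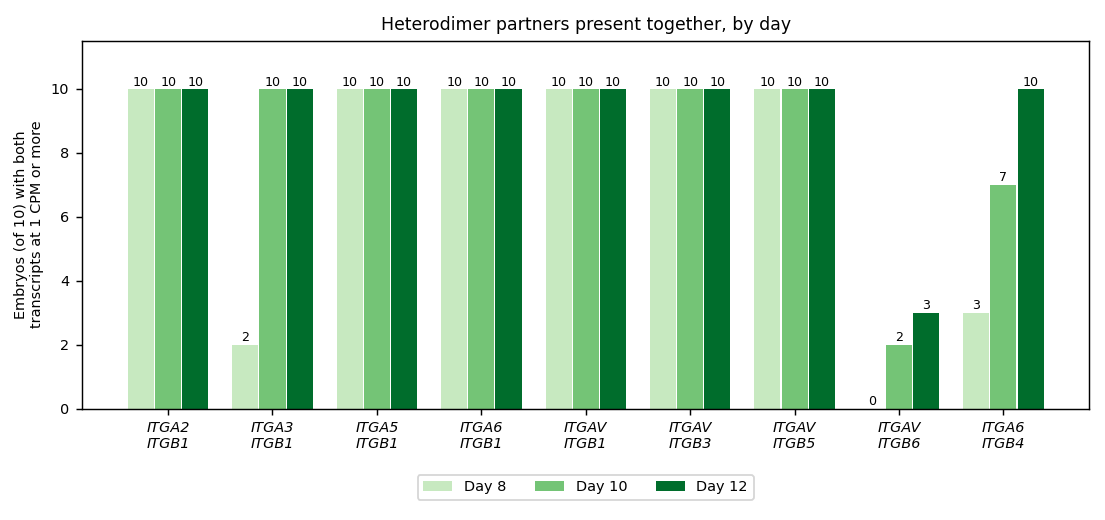
Number of embryos, of 10 per day, in which both transcripts of a pair reached 1 CPM (y axis), for the 9 pairs (x axis) on Day 8 (light), Day 10 and Day 12 (dark). Bars differ between days for ITGA3 with ITGB1, ITGAV with ITGB6 and ITGA6 with ITGB4.

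An embryo held 6 to 8 of the 9 pairs on Day 8 (median 6), 7 to 9 on Day 10 (median 8) and 8 or 9 on Day 12 (median 8). d10_m_453 and d10_f_454 and 3 Day 12 males held all 9. At 0.5 CPM ITGA3 with ITGB1 was present in 8 Day 8 embryos, ITGA6 with ITGB4 in 7, 9 and 10 embryos of the 3 days, and ITGAV with ITGB6 in 0, 2 and 6. At 5 CPM, ITGA3 with ITGB1 was present in 0, 3 and 10 embryos, ITGA2 with ITGB1 in 1, 3 and 9, and ITGAV with ITGB3 in 5, 3 and 9. The first appearance of these pairs thus moved with the limit, while ITGA5, ITGA6 and ITGAV with ITGB1 and ITGAV with ITGB5 stood at 10 of 10 at all 3 limits.

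The balance of partners, the log2 ratio of the beta to the alpha transcript within an embryo, does not depend on library scaling except through the prior count. That prior count weighs most where counts are low, as for ITGA3 on Day 8. The size of a balance is not read as a ratio of molecules, since transcript lengths of the genes were not at hand. It serves only to compare days and embryos. Toward ITGB1, the laminin receptor chains gained: the median balance of ITGB1 over ITGA3 changed by -2.24 from Day 8 to Day 10 and by -0.89 from Day 10 to Day 12, and that over ITGA6 by -0.82 and -0.90. For both, Days 8 and 10 did not overlap, nor did Days 8 and 12. How often other gene pairs lack overlap was not computed. ITGB1 over ITGA2 changed by -0.18 and then by -1.53, with overlap of all days. ITGB1 over ITGA5 went the other way, with a change of 0.86 without overlap up to Day 10 and of 0.41 with overlap afterwards, and d12_f_245 lay below all Day 8 embryos at -2.43 against a range of -1.33 to -0.77 there. Between the main partners, ITGB1 over ITGAV changed by -0.61 up to Day 10 and by -0.09 later, with overlap of the days.

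Among the beta partners of ITGAV, the median ratios of ITGB3 and ITGB5 to ITGAV were lower on Day 10 than on Day 8 and highest on Day 12. ITGB5 over ITGAV changed by -0.22 up to Day 10 and by 1.5002 from Day 10 to Day 12, and ITGB3 over ITGAV by -0.54 and 1.23, each with overlap. ITGB5 over ITGB3 had medians of 1.20, 1.59 and 1.37 on Days 8, 10 and 12, with the widest range, 0.34 to 3.95, on Day 12, and the day medians lay closer together than the embryos of a day. ITGB6 over ITGAV changed by 0.88 and 0.82, but on Day 8 its value is set by the prior count, as ITGB6 had almost no counts. ITGB4 over ITGA6 changed by -0.21 and 0.34, within a spread of 0.98 to 1.12 (SD, n = 10).

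**Figure D4:**
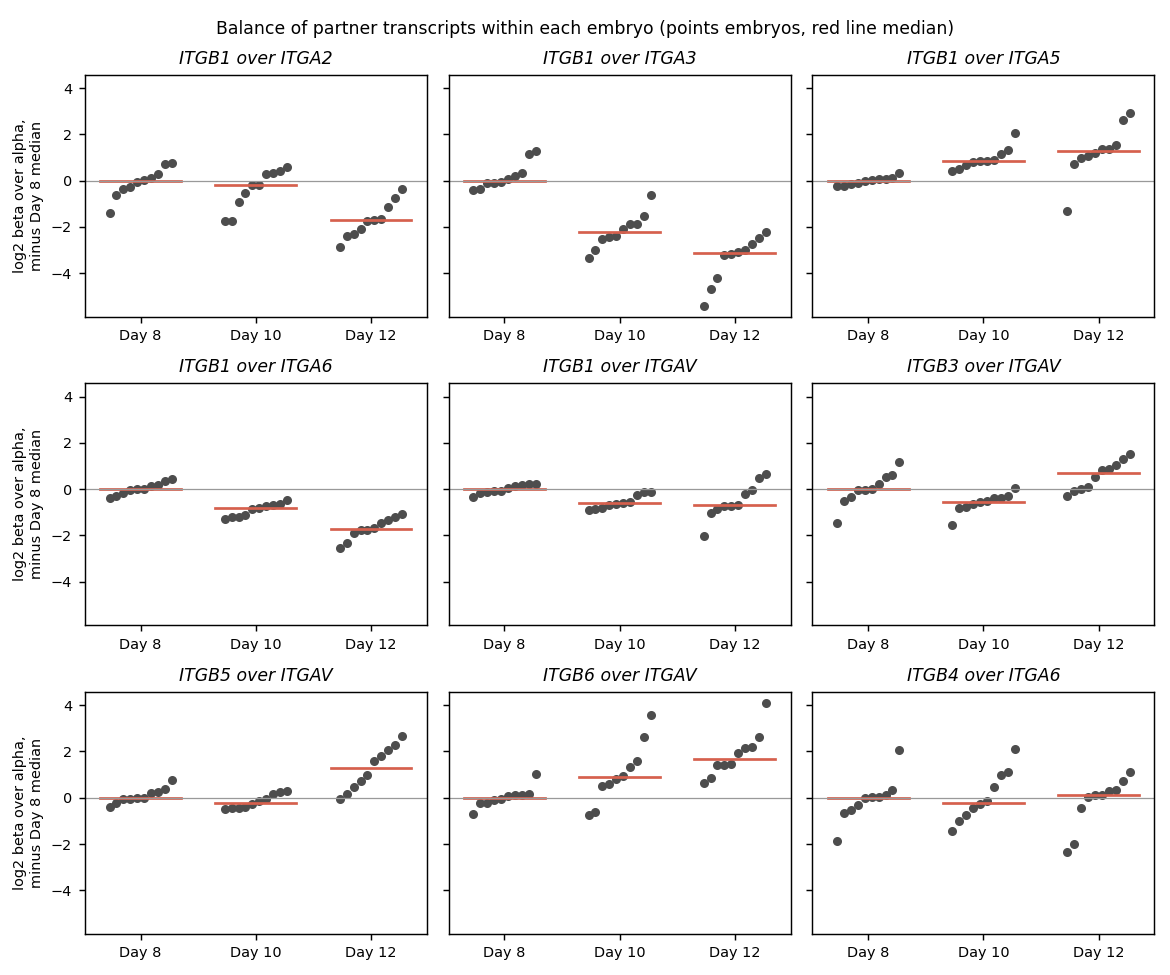
The log2 ratio of the beta to the alpha transcript in each embryo (points) minus the Day 8 median of that pair (y axis), by day, with the median of a day as a red line. The Day 10 embryos lie below all Day 8 embryos for ITGB1 over ITGA3 and over ITGA6 and above them for ITGB1 over ITGA5.

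Between alpha chains that share ITGB1, the medians of ITGA3, ITGA6 and ITGAV over ITGA5 changed by 2.99, 1.71 and 1.35 from Day 8 to Day 10 without overlap of the days, and by 1.22, 1.15 and 0.57 with overlap from Day 10 to Day 12. These ratios all share ITGA5, which itself fell up to Day 10 without overlap (-1.01), so they are not separate gains. ITGA6 and ITGAV were not called up to Day 10. The share of other gene pairs without overlap was not computed. ITGA2 over ITGA5 changed by 1.02 and 2.08, with overlap in both intervals.

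Female and male embryos were compared day by day in the counts of that day. Of the members 9, 9 and 10 were in these counts, since ITGB6 was in those of Day 12 alone. On Days 8, 10 and 12, 0 members were called at an adjusted p under 0.05 by edgeR's quasi-likelihood test, against 0.658%, 0.223% and 0.123% of all genes, and 1, 0 and 0 had an unadjusted p under 0.05. Of all genes, 524 of 11405 on Day 8 and 2775 of 12220 on Day 12 had an unadjusted p under 0.05 by edgeR. On Day 10 fewer genes had such a p than on Day 8. DESeq2 and the robust GLM also called 0 members. No member had sexes without overlap. The one with the low unadjusted p was ITGB3 on Day 8, with 6.60 ± 2.92 CPM in females against 3.77 ± 1.31 CPM in males (SD, n = 5), a log2 fold change of 0.82 (SE 0.30) and an adjusted p of 0.734 over all genes by edgeR. Embryo d08_f_124 had 11.7 CPM of it. ITGB1 on Day 12 had 290 ± 181 CPM in females against 515 ± 75.1 CPM in males, with a log2 fold change of -0.81 (SE 0.41, edgeR adjusted p = 0.245). Embryos d12_f_245 and d12_f_271, which lay apart, had the lowest values in it. In 1 fit of all 6 groups ITGB1 had -0.83 (edgeR adjusted p = 0.0395) and was called, as 1 of 2658 genes. The change between days differed between the sexes for 0 members in both intervals, as for 0% of all genes, with 0 members and 100 and 2473 genes at an unadjusted p under 0.05 by edgeR, and DESeq2 also called 0 members.

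The genes whose log2 CPM followed ITGAV most closely over the 30 embryos were SYNE3 (Pearson r = 0.90), WDR47 (0.87) and NNT (0.86), among 13102 genes. SYNE3 codes for a protein of the nuclear envelope and NNT for a mitochondrial transhydrogenase. Within Day 12 alone these 3 had r of 0.96, 0.92 and 0.97, and 0.94, 0.90 and 0.91 in the 8 embryos without d12_f_245 and d12_f_271, but on Day 8 they had 0.33, 0.36 and 0.24. On Day 10 they had 0.75, 0.56 and 0.63, and 0.65, 0.19 and 0.14 without d10_m_453 and d10_f_454. Of the beta partners, ITGB3 came highest with r = 0.78 (rank 76), ahead of ITGB1 (0.67, rank 465), ITGB5 (0.61, rank 1013) and ITGB6 (0.60, rank 1077). Within Day 12, ITGB3 had r = 0.88 with ITGAV and ITGB5 had r = 0.12, and without d12_f_245 and d12_f_271 these were 0.72 and -0.52. The order was the other way on the earlier days, with -0.18 for ITGB3 and 0.15 for ITGB5 on Day 8. On Day 10 they had 0.67 and 0.79, and 0.55 and 0.62 without d10_m_453 and d10_f_454. ITGB1 had 0.68, 0.51 and 0.65 with ITGAV within Days 8, 10 and 12. For ITGB1 the nearest genes were TRIP12, a ubiquitin ligase (0.95), AP1G1, an adaptor of vesicle transport (0.92), and ARNT, a transcription factor (0.91). Within Days 8, 10 and 12 TRIP12 had r of 0.69, 0.89 and 0.96, AP1G1 0.04, 0.25 and 0.96, and ARNT 0.77, -0.04 and 0.97, so the pooled values of the last 2 did not hold within every day. Without the embryos that lay apart, TRIP12 had 0.61 on Day 10 and 0.75 on Day 12, AP1G1 0.14 and 0.87, and ARNT -0.47 and 0.87. Its alpha partners had ranks of 367 (ITGA6, r = 0.71), 522 (ITGAV, 0.67), 644 (ITGA2, 0.65), 2866 (ITGA3, 0.39) and 7412 (ITGA5, -0.01). ITGA6 was the only partner with r over 0.7 to ITGB1 within each day, at 0.79, 0.89 and 0.87, and without the embryos that lay apart it was 0.56 on Day 10 and 0.63 on Day 12. In the same embryos ITGAV had r to ITGB1 of -0.31 on Day 10 and 0.16 on Day 12, and ITGA2 had 0.46 and -0.19. The 3 days form clusters of embryos, every value of an embryo comes from 1 library, and these correlations are a description with no test.

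Of 16 further integrin subunits listed, 9 were in the counts, and ITGA1, ITGA4, ITGA7, ITGA8 and ITGA11, which also pair with ITGB1, were not. From Day 8 to Day 10, 0 were called higher and 2 lower, against 9.88% and 4.20% of all genes, with ITGA9 as the largest fall (median 2.24 to 0.630 CPM, log2 fold change -2.05, adjusted p = 8.16e-07). From Day 10 to Day 12, 2 were called higher and 1 lower, against 14.9% and 8.39%. The largest rise was in ITGB2, the beta chain known from leukocytes, from 0 to 0.534 CPM on Day 10 to 1.08 to 87.4 CPM on Day 12 (log2 fold change 6.69, adjusted p = 1.54e-10). LCP1 was at most 6.96 CPM on Day 12 and not called, and PTPRC, CD53, CD14 and CD68 were not in the counts. The alpha chains ITGAL and ITGAM are named after their values were seen. ITGAL was the other subunit called higher, from a median of 2.78 to 6.28 CPM (1.46, edgeR adjusted p = 1.34e-07). ITGAM had medians of 34.3 and 51.3 CPM on Days 10 and 12 and no call (0.54). The largest fall was in ITGA10, a collagen receptor chain (3.58 to 1.69 CPM in medians, -1.10, adjusted p = 6.57e-06). ITGB8, the remaining partner of ITGAV, was named after its values were seen: it had medians of 0, 0.220 and 0.992 CPM on Days 8, 10 and 12 and no call in these intervals (adjusted p = 0.0205 up to Day 10).

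Ligands of these receptors rose most often after Day 10. Of 32 matrix ligands, also listed with earlier results of these data known, 26 were in the counts. Up to Day 10, 5 were called higher and 1 lower, and from Day 10 to Day 12 16 were called higher and 3 lower, against 9.88% and 4.20% and then 14.9% and 8.39% of all genes. The median log2 fold change was 0.29 and 1.47. Without d10_m_453 and d10_f_454, 1 was called lower in the second interval. The largest rise up to Day 10 and the largest fall after it were in TGFB3, a latent growth factor with an RGD motif (log2 fold change 5.30, adjusted p = 5.49e-07, then -4.34, adjusted p = 3.47e-06). Its Day 10 embryos ran from 4.32 to 234 CPM, with a median of 9.11 CPM, and without d10_m_453 and d10_f_454 the values were 3.46 and -2.51, both still called. The largest fall up to Day 10 was in HSPG2, which codes for perlecan (-1.37, adjusted p = 1.13e-07), and the largest rise after Day 10 was in LAMA3, a chain of laminin bound by the ITGA3 and ITGA6 receptors. LAMA3 went from 0.863 to 7.48 CPM on Day 10 to 40.2 to 611 CPM on Day 12 (5.90, adjusted p = 1.19e-08). FN1 and LAMB3 are named after their values were seen. FN1, fibronectin, the ligand of ITGA5 with ITGB1, rose by 1.43 after Day 10 (adjusted p = 0.000579), with medians of 1197, 2367 and 5170.2 CPM on the 3 days. LAMB3 rose up to Day 10 (3.79, adjusted p = 1.77e-10) and was called lower afterwards (-1.52, adjusted p = 8.96e-05), a call that was lost without d10_m_453 and d10_f_454 (-1.15, adjusted p = 0.00120).

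Of the genes for proteins on the inner side of the receptor, 47 activators and focal adhesion genes were listed and 43 were in the counts. Up to Day 10, 5 were called higher and 1 lower, and from Day 10 to Day 12 8 higher and 6 lower, against 9.88% and 4.20% and then 14.9% and 8.39% of all genes. The median log2 fold changes were 0.15 and 0.20. Without d10_m_453 and d10_f_454, 3 were called higher up to Day 10. The largest rise up to Day 10 was in DAB2, an adaptor for integrin endocytosis (1.31, adjusted p = 6.42e-12), and the largest fall in TNS4, a tensin (-3.84, adjusted p = 5.02e-07), which then had the largest rise (3.55, adjusted p = 9.66e-07). After Day 10 the largest fall was in TLN2, a talin (-2.34, adjusted p = 6.03e-13), from a median of 301 to 49.98 CPM. Its paralog TLN1, named after its values were seen, rose from 180.2 to 693 CPM in medians (1.78, adjusted p = 3.24e-09). The kindlins, seen in the same way, also moved apart, with FERMT1 higher (2.84, adjusted p = 2.04e-09) and FERMT2 lower (-1.26, adjusted p = 1.02e-09).

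Lateral partners of integrins in the membrane and hemidesmosome proteins numbered 11 of 14 listed. Up to Day 10, 3 were called higher and 0 lower, and from Day 10 to Day 12 0 higher and 3 lower, against the same shares of all genes. The median log2 fold changes were 0.63 and 0.25. Without d10_m_453 and d10_f_454, 2 were called higher in the second interval. COL17A1, a transmembrane collagen of hemidesmosomes beside ITGA6 and ITGB4, had the largest rise up to Day 10 (4.49, adjusted p = 6.14e-06), with 0 to 0.384 CPM on Day 8 and 0.339 to 15.2 CPM on Day 10. Its highest Day 10 values were those of d10_m_453 and d10_f_454, and without them the value was 2.60 (adjusted p = 5.42e-05), while the change after Day 10 went from 0.67 (adjusted p = 0.328) to 2.55 (adjusted p = 8.47e-06). CD9, a tetraspanin that binds laminin receptors, had the largest fall, from a median of 748 CPM on Day 10 to 154 CPM on Day 12 (-2.32, adjusted p = 2.09e-17).

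**Figure D5:**
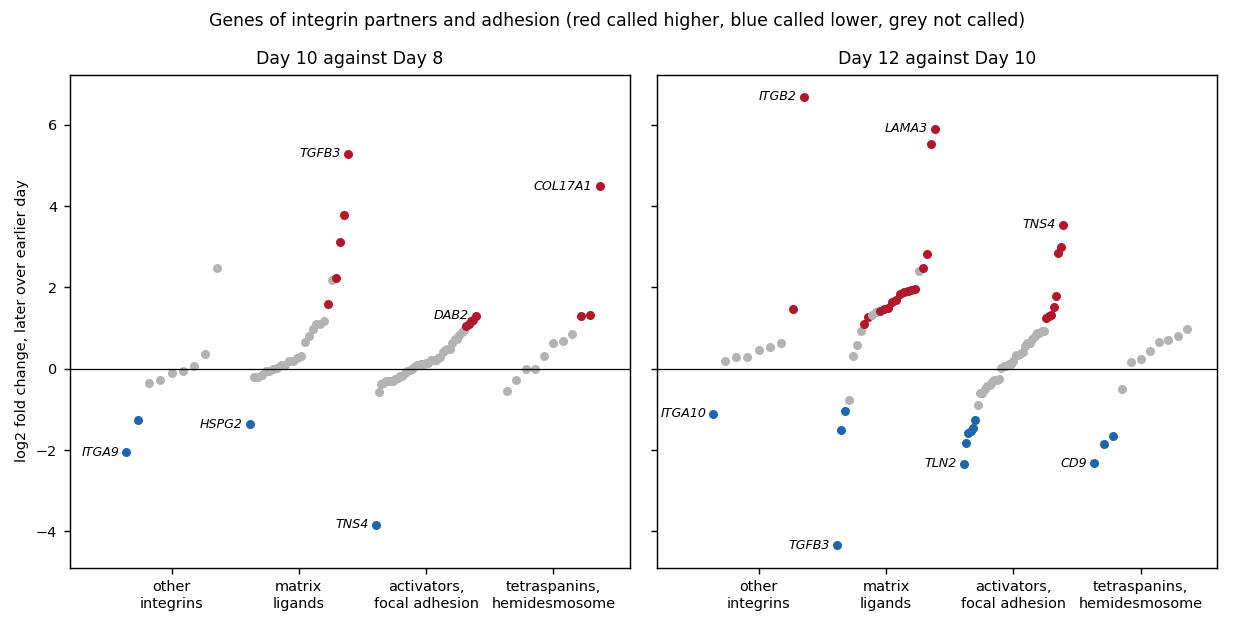
The log2 fold change of each measured gene (y axis) in the 4 lists of integrin partners (x axis), up to Day 10 on the left and from Day 10 to Day 12 on the right, with calls as higher in red, calls as lower in blue and other genes in grey. Matrix ligands hold 5 red points on the left and 16 on the right.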

How the data were processed

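Each library was made from the poly(A) RNA of 1 embryo with a stranded kit and sequenced as single-end reads. The authors trimmed the reads, removed 3 bases at the 5′ end, mapped them to Sscrofa version 11.1 with the NCBI annotation and filtered genes by CPM. The aligner, counter and strand setting are not given in the sources used here. The deposited counts are whole reads for each gene, unscaled, in 1 table of all embryos and 1 per day, with NCBI gene identifiers. The submitters' processing notes name edgeR.

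Counts were scaled by TMM and tested with edgeR 4.0.16 (quasi-likelihood F test, robust, R 4.3.3), in 1 fit of 3 day groups, with sexes compared in the table of their day and interactions in a fit of 6 groups. The SE is the log2 fold change over the square root of F. Log2 levels used a prior count of 2, and figures matplotlib 3.10.9. Positions and symbols came from RefSeq's gene table of Sscrofa version 11.1. Transcript lengths and sequences were not used here, so shares of the alpha and beta pools per length were not computed. The fit was run on simulated counts of independent embryos, drawn at Day 10 means with 200 of 13103 genes changed on Day 12 by a log2 value of 2 up or down. It recovered 92% of them with 0 false calls. The simulation held no littermates and no embryos that lay apart, so it does not vouch for the calls in these data.

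Named were all 10 members, for ITGAV and ITGB1 the 3 genes of highest correlation, and per list and interval the called genes with the largest rise and fall. Members and lists were chosen with earlier results of these data known. Alternatives were the robust GLM, DESeq2 1.42.0, other size factors, filters and prior counts, 1 sex alone and 1 embryo left out. The fits without embryos that lay apart and DESeq2 for the interaction were chosen after seeing the data.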

Additional observations from a re-analysis of the deposited data

Results flagged for a closer look

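In each member and day, the highest and the lowest of the 10 embryos were compared with their nearest neighbour, and 8 of 30 sets of 10 embryos had such a value beyond Dixon's 95% limit. For independent values with a normal spread, chance passes this limit in about 1 in 20 sets. The CPM here are skewed and the sets share the same embryos, and the rate for such data was not measured. On Day 8, d08_m_103 was above the next embryo for ITGA2 (8.34 against 4.60 CPM), ITGB4 (4.36 against 1.30 CPM) and ITGB6 (0.110 against 0 CPM). For ITGB6 the other 9 embryos had 0 counts, so any count in a single embryo would pass, and it rests on 4 counts. Embryo d08_m_136 stood apart for ITGA6 (95.2 against 65.2 CPM) and ITGAV (21.5 against 15.8 CPM), d08_m_121 for ITGB5 (18.6 against 12.5 CPM) and d08_f_124 for ITGB3 (11.7 against 6.07 CPM). On Day 10, d10_m_453 was above the next embryo for ITGB6 (2.02 against 1.03 CPM). On Day 12 no embryo met the limit for any member. Embryos d12_f_245 and d12_f_271 were low together in 4 members there. The cause was not tested.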

How the results depend on the processing

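Of 1000 log2 fold changes of members under the alternatives, 931 kept their direction and their side of the limits, 51 lost a call, 14 gained one and 4 turned sign. The last were ITGB1 up to Day 10 in female embryos alone (0.00557), ITGB3 up to Day 10 in male embryos alone (0.25) and in the fits without 1 embryo (-0.25 to 0.0589, above 0 without d08_f_124), and ITGA2 up to Day 10 without d10_m_453 and d10_f_454 (-0.0476). Tested against a log2 value of 1, 1, 1 and 4 members were called from Day 8 to 10, Day 10 to 12 and Day 8 to 12. In female embryos alone the counts were 1, 2 and 4, and in male embryos alone 1 from Day 8 to 10 and 5 from Day 8 to 12, with fewer embryos in each fit. An FDR under 0.05 with no fold limit gave 5 members from Day 8 to 10. Without d10_m_453 and d10_f_454, 1 member was called from Day 8 to 10, and without all 5 embryos that lay apart 8 from Day 10 to 12. With 1 embryo left out, the counts were 2 to 4, 5 and 7 to 8. One fit of 6 groups called 1 member between the sexes on Day 12 (ITGB1), where it called 2658 genes. At 5 CPM, 4 pairs on Day 10 and 5 on Day 12 were present in every embryo, against 7 and 8 at 1 CPM. The median log2 balance of ITGB6 over ITGAV on Day 8 was -9.22 with a prior count of 0.5 and -5.92 with 5, against -7.23. Library size alone moved the median log2 fold change of all genes to -0.15 up to Day 10 and 0.24 after it, and the calls over all genes up to Day 10 to 1027 higher and 811 lower, against 1295 and 550 with TMM, while no member turned sign under it or under RLE factors. Shares of the alpha and beta pools could not be computed without transcript lengths. No analysis paired by gilt was possible, because the gilt of each embryo was not stated, although the study took both sexes from the same gilts. Each gilt gave embryos of 1 day alone, so such pairing could have served the comparison of sexes but not that of days. ITGB6 on Day 8 is at the limit that depth allows.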
